A study of Rattus norvegicus with 24 samples.

Results

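Expression of 8 genes of fatty acid synthesis, lipolysis and oxidation was followed in the INS-1E cell line: Acly, Acaca, Fasn, Elovl6, Srebf1, Gpd1, Lpl and Cpt1a. They were chosen by name with earlier results of these data known, so their counts beside all genes are descriptions. Every probe set annotated to 1 of them was taken, 14 probe sets in all of the 20826 that carry a single gene symbol. Each gene was read from its brighter probe set in a fit over 14217 genes. INS-1E is an established rat insulinoma line used as a model of the insulin-secreting beta cell. The cells carried no stated genetic change and received either DMSO, the vehicle, or 10 uM BRD0476, a small molecule known for reducing the death of beta cells exposed to cytokines. Both were given without cytokines or with interleukin 1 beta at 10 ng/ml, interferon gamma at 50 ng/ml and tumour necrosis factor alpha at 25 ng/ml, and RNA was taken at 6 h or 12 h. This gave 8 groups of 3 arrays, 24 arrays in all, named here by cytokines or none, DMSO or BRD0476, and time. Cells called untreated below received DMSO and no cytokines. The labels do not say that replicates were separate cultures, so the errors and tests cover differences among arrays and perhaps no biological variation.

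Fatty acids are built in the cytosol from citrate exported by mitochondria. ATP citrate lyase (Acly) splits citrate into acetyl-CoA, acetyl-CoA carboxylase 1 (Acaca) makes malonyl-CoA, fatty acid synthase (Fasn) assembles palmitate and Elovl6 lengthens it, all under the transcription factor SREBP-1, the product of Srebf1. Glycerol-3-phosphate dehydrogenase 1 (Gpd1) links glycolysis to the glycerol backbone of lipids, lipoprotein lipase (Lpl) frees fatty acids from circulating triglyceride, and carnitine palmitoyltransferase 1a (Cpt1a) carries them into mitochondria for oxidation. Malonyl-CoA inhibits Cpt1a, so synthesis and oxidation are opposed, and in beta cells this switch is known for coupling glucose to insulin secretion.

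Promoter windows, 250 bases before to 50 bases after a transcription start, were at hand from RefSeq on the GRCr8 build for 3 of the 8 genes, as 4 windows. They are shown because Acly and Srebf1 are members of the lipogenic arm and Cpt1a of the opposed oxidative arm, and because Srebf1 has 2 start windows and also 2 probe sets that gave different results. Each is printed 5′ to 3′ on the strand of the gene, and capitals mark the motif CCAAT, a site of the factor NF-Y, and the GC box GGGCGG, a site of Sp1, on either strand.

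Acly, chr10:85963582-85963881, minus strand: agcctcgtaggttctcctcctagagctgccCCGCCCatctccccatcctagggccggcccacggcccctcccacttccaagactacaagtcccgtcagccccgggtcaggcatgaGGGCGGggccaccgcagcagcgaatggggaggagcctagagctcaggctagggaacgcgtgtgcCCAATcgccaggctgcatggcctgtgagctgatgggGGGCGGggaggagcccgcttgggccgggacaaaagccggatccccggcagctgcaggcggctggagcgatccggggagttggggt
Srebf1, chr10:45529115-45529414, minus strand: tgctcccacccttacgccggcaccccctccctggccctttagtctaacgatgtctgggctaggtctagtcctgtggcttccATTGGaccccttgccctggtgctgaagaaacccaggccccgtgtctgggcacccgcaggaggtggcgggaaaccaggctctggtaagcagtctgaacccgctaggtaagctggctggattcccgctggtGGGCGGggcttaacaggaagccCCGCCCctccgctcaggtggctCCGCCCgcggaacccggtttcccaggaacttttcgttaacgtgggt
Srebf1, chr10:45518961-45519260, minus strand: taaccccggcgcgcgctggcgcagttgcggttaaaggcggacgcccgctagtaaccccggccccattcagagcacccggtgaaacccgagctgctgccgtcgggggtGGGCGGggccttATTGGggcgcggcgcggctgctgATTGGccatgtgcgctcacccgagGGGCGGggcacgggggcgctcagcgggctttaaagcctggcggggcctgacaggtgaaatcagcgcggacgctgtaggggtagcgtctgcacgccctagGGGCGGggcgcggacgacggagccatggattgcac
Cpt1a, chr1:209995910-209996209, plus strand: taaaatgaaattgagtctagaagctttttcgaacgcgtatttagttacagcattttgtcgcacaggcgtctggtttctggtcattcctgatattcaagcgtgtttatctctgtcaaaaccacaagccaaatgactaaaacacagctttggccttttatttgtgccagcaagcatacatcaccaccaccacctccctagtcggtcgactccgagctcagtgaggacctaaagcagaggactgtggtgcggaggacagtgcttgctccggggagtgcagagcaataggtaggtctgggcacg

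The Acly window held 1 CCAAT and 3 GC boxes, the first Srebf1 window 1 and 3, the second Srebf1 window 2 and 3, and the Cpt1a window none of either. CCAAT was found in 37.5% and the GC box in 33.1% of 33469 promoter windows of the same length. The sterol regulatory element in the form TCACNCCAC, where N is any base, and the E-box CACGTG were searched on both strands too, and none of the 4 windows held them, against 1.12% and 6.42% of all windows. No searched motif overlapped another in these windows. The probe sets could not be tied to either Srebf1 start from the files used here.

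The arrays were alike in brightness, with medians between 5.487 and 5.569 log2 units, and replicates correlated at 0.9919 to 0.9982 over all 31099 probe sets. Replicate 3 of cytokines with DMSO lay farthest from its group at both times: its deviations from the group mean had an SD of 0.195 at 6 h and 0.198 at 12 h, against 0.0799 to 0.156 for the other arrays. The deviations of these 2 arrays correlated at 0.722 over the 14217 genes. Gene values without both are given below where leaving them out changed a call or moved a called value by over 1.5 times. Counts over gene lists also moved without them, and the new counts are given for some lists only. For the beta-cell label, 8 of 8 measured markers had means over all arrays above the median of all genes (7.27), with Ins1 at 14.54 log2 units, although the lowest group mean of Nkx6-1 was 7.0. Of 6 measured adipocyte markers, Adipoq, Lep, Cfd, Plin1 and Fabp4 had group means of 3.26 to 3.94, under the lower quartile of all genes (4.487). Cidec was the exception at 6.28 to 8.33.

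Summed marker levels of several cell types moved with the treatments at 6 h, and their part in the results below was not tested. The beta cell sum ran from 16.38 to 16.53 in untreated cells, 16.23 to 16.25 with cytokines and 16.44 to 16.46 with cytokines and BRD0476. The sum of 6 other islet endocrine markers, 1 of them above the median of all genes, ran from 10.26 to 10.53, 9.44 to 9.56 and 10.26 to 10.32 in the same groups. The sums of 6 fibroblast and 4 endothelial markers, with 0 above that median, were also lowest with cytokines and DMSO, at 6.51 to 6.73 and 5.89 to 6.05. They were 7.23 to 7.48 and 6.48 to 6.77 in untreated cells and 6.99 to 7.11 and 6.58 to 6.75 with cytokines and BRD0476. For each of these 4 sums the cytokine and DMSO arrays at 6 h overlapped neither of the other groups. Over all groups, Gcg had the widest range of means among the islet endocrine markers, 9.33 to 10.54, while Ttr, the next brightest, reached 5.33. Pdgfra (4.96 to 6.58) had the widest range among the fibroblast markers and Kdr (4.08 to 6.46) among the endothelial ones. Whether cell content differed was not tested.

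Cytokines were first compared with no cytokines in DMSO. At 6 h they lowered the transcripts of Elovl6 4.09-fold, Acaca 2.54-fold, Fasn 2.11-fold and Acly 1.17-fold. Gpd1 fell furthest, 8.09-fold, while Lpl rose 1.93-fold and Cpt1a 1.23-fold. Srebf1 did not pass the test at 6 h and was 1.32-fold lower at 12 h. At 12 h Acaca was level with its control, and Fasn, Elovl6 and Gpd1 were still lower, by less than at 6 h. Differences were tested with limma across all genes at an adjusted p under 0.05. By that rule 7 of the 8 genes changed at 6 h, 2 up and 5 down, where 51.7% of all 14217 genes changed (24.3% up and 27.4% down). At 12 h 7 again changed, 2 up and 5 down, where 45.9% of all genes did (16% up and 29.9% down). The median change of the 8 was -0.65 log2 units at 6 h and -0.27 at 12 h, beside 0.00 and -0.04 over all genes.

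**Figure D1:**
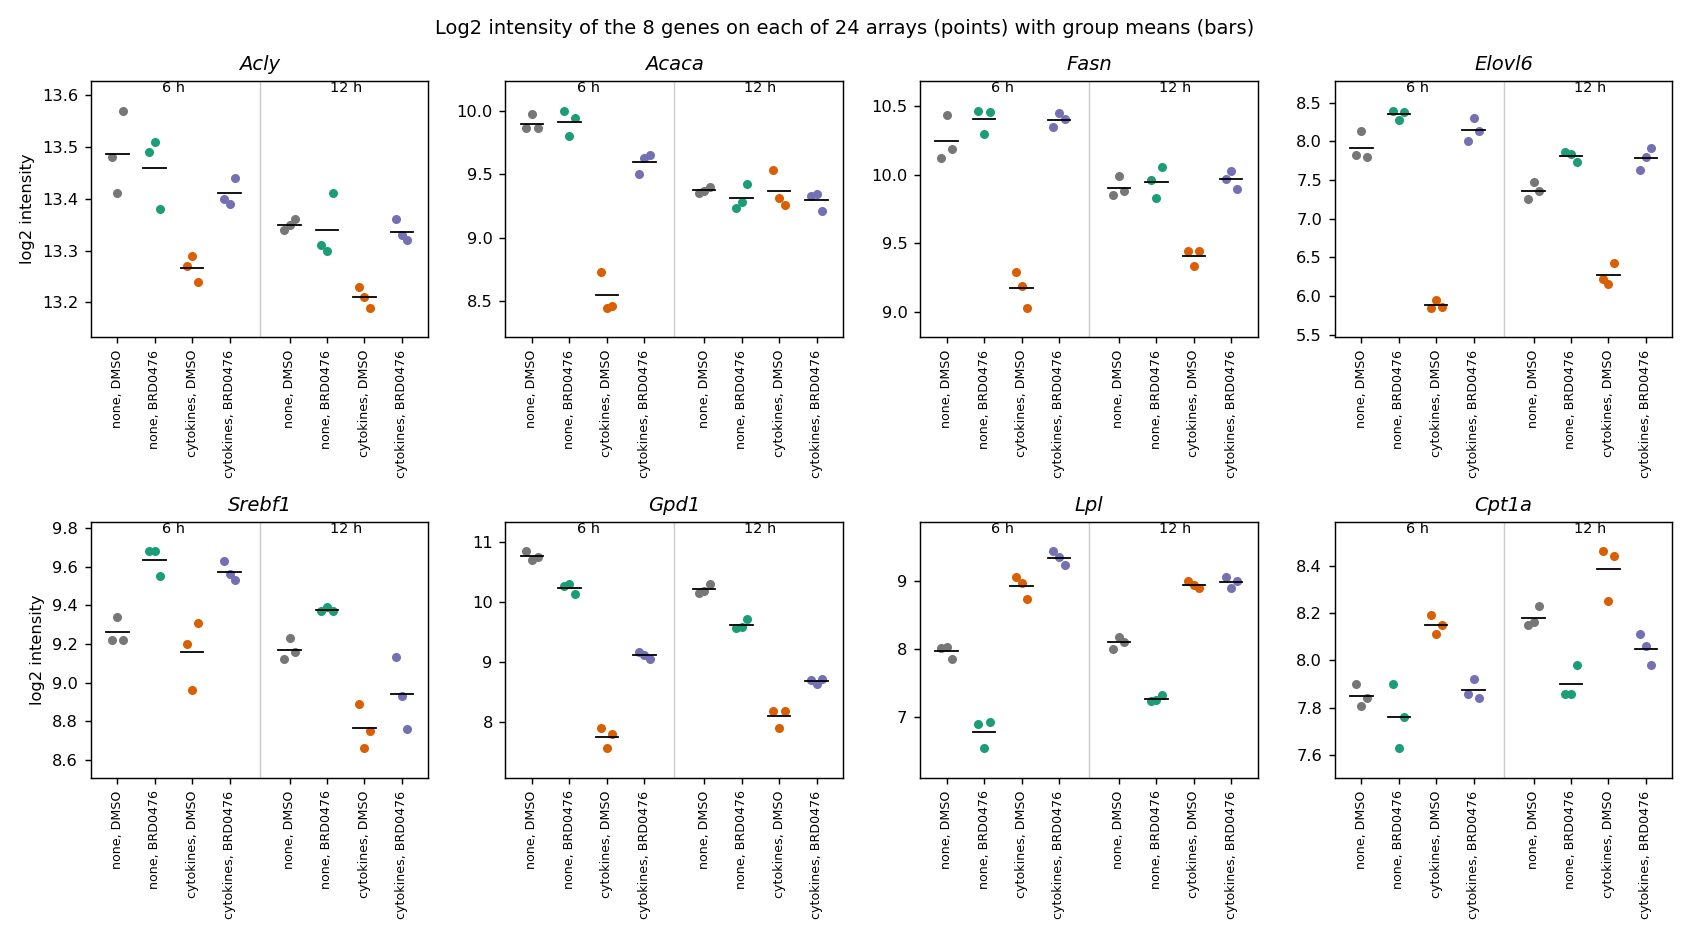
Log2 intensity (vertical axis, a separate scale for each gene) of the 8 genes on each of the 24 arrays, grouped along the horizontal axis by treatment and time, with points for arrays and bars for group means. With cytokines and DMSO at 6 h, Acaca, Fasn, Elovl6 and Gpd1 have their lowest group means, and with BRD0476 and no cytokines at 6 h Lpl has its lowest, 6.79.

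The enzymes of synthesis gave the following array values. Acaca, which catalyses the committed step of synthesis, read 9.86, 9.97 and 9.86 log2 units without cytokines at 6 h and 8.73, 8.45 and 8.46 with them. Every cytokine array lay more than 1 log2 unit below every control array, and the change was -1.35 (SE 0.085, limma adjusted p 2.01e-11). At 12 h the controls read 9.35, 9.37 and 9.40 and the cytokine arrays 9.53, 9.31 and 9.26, which overlap, with a change of -0.0037 (95% interval -0.18 to 0.17). Fasn, the multifunctional synthase, read 10.12, 10.44 and 10.19 without cytokines at 6 h and 9.29, 9.19 and 9.03 with them. The groups were well apart, at -1.08 (SE 0.085, adjusted p 7.25e-10). At 12 h Fasn controls read 9.85, 9.99 and 9.88 against 9.44, 9.33 and 9.44, still without overlap, and the change was -0.50 (adjusted p 4.84e-05). Acly read 13.48, 13.41 and 13.57 against 13.27, 13.29 and 13.24 at 6 h, a small but separate drop of -0.22 (SE 0.054, adjusted p 0.00153). In a limma fit over the compared arrays alone, this drop was not called (adjusted p 0.0672). The 12 h change of Acly, -0.14, passed at 0.0353 but not without any 1 of the 6 arrays compared, when the adjusted p lay between 0.0522 and 0.0873, nor without replicate 3 of cytokines with DMSO at both times (0.0824).

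Elovl6, the elongase that takes palmitate to stearate, read 7.83, 8.13 and 7.80 without cytokines at 6 h and 5.85, 5.95 and 5.86 with them. The cytokine arrays were tight and far below, with a change of -2.03 (SE 0.099, adjusted p 2.67e-13), the 66th lowest of 14217 genes. At 12 h the values were 7.25, 7.47 and 7.36 against 6.22, 6.15 and 6.43, and the change was -1.10 (adjusted p 8.12e-09). The groups were separate at both times. At 12 h the cytokine arrays were higher and the controls lower than at 6 h.

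Srebf1 gave a result that depended on the probe set. On the brighter one the 6 h arrays overlapped, with 9.22, 9.34 and 9.22 without cytokines and 9.20, 8.96 and 9.31 with them, and the change was -0.10 (95% interval -0.29 to 0.08). At 12 h they were separate, with 9.12, 9.23 and 9.16 against 8.89, 8.66 and 8.75, and Srebf1 fell by 0.41 (SE 0.089, adjusted p 0.000737). The dimmer probe set read 5.79, 6.26 and 6.00 against 6.82, 6.91 and 6.05 at 6 h. It was higher on replicates 1 and 2 and within the control range on replicate 3, and in a fit over all probe sets it rose by 0.57 (SE 0.20, adjusted p 0.0254). Replicate 3 of cytokines with DMSO is 1 of the arrays that lay apart, and without it at both times the rise was 0.85 (adjusted p 6.32e-06). At 12 h this probe set read 5.92, 5.85 and 5.82 against 6.26, 6.40 and 5.46, a change of 0.17 (adjusted p 0.546), or 0.46 (adjusted p 0.0036) without those arrays. With a mean of both probe sets in place of the brighter one, the 12 h fall of Srebf1 was -0.12 and was not called (adjusted p 0.394).

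Gpd1, which makes glycerol 3-phosphate from a glycolytic intermediate, fell more than nearly any gene on the array. It read 10.85, 10.71 and 10.76 without cytokines at 6 h and 7.90, 7.56 and 7.80 with them. The gap between the groups was many times the spread within either, with a change of -3.02 (SE 0.086, adjusted p 4.6e-17), and only 2 of 14217 genes had a lower value. At 12 h the values were 10.16, 10.19 and 10.31 against 8.18, 7.90 and 8.19, again far apart, at -2.13 (adjusted p 1.62e-14).

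Lpl and Cpt1a moved up. Lpl read 8.02, 8.03 and 7.86 without cytokines at 6 h and 9.05, 8.97 and 8.73 with them, and 8.0, 8.18 and 8.11 against 9.0, 8.94 and 8.89 at 12 h. Groups were separate at both times, and the rises were 0.95 (SE 0.095, adjusted p 2.94e-08) and 0.84 (adjusted p 2.36e-07). The summed signal of the 6 adipocyte markers rose in the same direction, from 7.22 to 7.38 without cytokines to 7.49 to 7.79 with them at 6 h, and from 7.09 to 7.23 to 8.44 to 8.67 at 12 h. Of these markers, the 5 named above were near background in every group. Cpt1a read 7.90, 7.81 and 7.84 against 8.19, 8.11 and 8.15 at 6 h, separate but by a small margin, and rose by 0.29 (SE 0.070, adjusted p 0.00114). At 12 h it read 8.15, 8.16 and 8.23 against 8.46, 8.25 and 8.44, a rise of 0.20 (adjusted p 0.0216). That call was lost without replicate 1 or 2 of the controls or replicate 1 or 3 of the cytokine arrays (adjusted p up to 0.0949), and without replicate 3 of cytokines with DMSO at both times (0.0779).

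Around the 8 genes, lists of fatty acid and glycerolipid metabolism were drawn up, also with earlier results of these data known. Of 145 listed genes 133 were measured, the 8 included. At 6 h 30 rose and 51 fell, with a median change of -0.06. Over all genes 51.7% changed, 24.3% up and 27.4% down, and the shares of the lists of peroxisomal oxidation (54.5%), glycerolipids (56.2%), uptake (56.2%) and lipolysis (47.6%) were near that. Of 13 synthesis genes none rose and 8 fell, among them Acss2, which makes acetyl-CoA from acetate (-1.05), and Mid1ip1, an activator of acetyl-CoA carboxylase (-0.77). Without replicate 3 of cytokines with DMSO at both times the Mid1ip1 fall was -0.51 (adjusted p 0.00195). Of 14 elongation and desaturation genes 1 rose and 9 fell, with a median of -0.41. The largest falls besides Elovl6 were in Fads1, the delta-5 desaturase (-1.67), and Scd2, a stearoyl-CoA desaturase (-1.17), whereas Fads3 rose by 0.49. Of 21 genes of mitochondrial oxidation 4 rose and 13 fell, with a median of -0.32. Hadh, the short-chain hydroxyacyl-CoA dehydrogenase (-1.99), and Acadm, the medium-chain acyl-CoA dehydrogenase (-1.16), fell furthest. Cpt1a was 1 of the 4 that rose, with Hadha (0.66) and Eci1 (0.61), though no further probe set of Hadha or Eci1 was called. Cpt2, which acts after Cpt1a at the inner membrane and is named here with its values known, fell by 0.91.

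Peroxisomal oxidation genes fell in 6 of 11 cases and rose in none, led by the fatty acyl-CoA transporter Abcd3 (-1.36). Lipolysis and lipid droplet genes leaned the other way, with 9 of 21 higher and 1 lower. Hilpda, a droplet protein that inhibits lipolysis, rose by 1.88 and Mgll, monoglyceride lipase, by 1.08, although 1 of 3 further Mgll probe sets was called lower. Among 21 regulators 11 rose and 1 fell. Nr1h2, the liver X receptor beta, rose by 1.27 and Ppard by 0.97. Nr1h2 read 8.20 on replicate 3 of cytokines with DMSO, 1 of the arrays that lay apart, against 8.68 and 8.83 on the others, and its second probe set was not called. Insig1, which holds the SREBP complex in the endoplasmic reticulum, fell by 0.92. Of 16 glycerol phosphate and glycerolipid genes 3 rose and 6 fell. Without replicate 3 of cytokines with DMSO, 4 rose and 7 fell. Gk, glycerol kinase (-1.75), and Gpd2, the mitochondrial partner of Gpd1 (-1.11), fell with Gpd1. Lpin2 rose by 0.89, and its second probe set was not called. Of 16 uptake and activation genes 2 rose and 7 fell, with Fabp3 at -1.01 and Acsl3 at -0.92. The Acsl5 rise of 0.90 was met by a call in the other direction on its second probe set.

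At 12 h 20 of the 133 rose and 56 fell, where 16% of all genes rose and 29.9% fell. Synthesis had 1 higher and 6 lower of 13, elongation and desaturation 10 lower of 14, mitochondrial oxidation 3 higher and 11 lower of 21, and peroxisomal oxidation 6 lower of 11. Fads1 (-1.52), Hacd1, a hydroxyacyl-CoA dehydratase (-1.54), Acadm (-1.11) and Hadh (-1.34) were among the lowest. Of 16 glycerolipid genes 9 were lower, with Lpin1, a phosphatidate phosphatase, at -1.47. In the lipolysis list 7 were higher and 4 lower of 21: Pnpla2, the adipose triglyceride lipase, rose by 1.03, and its inhibitor G0s2 fell by 1.85. Of the 21 regulators 5 rose and 3 fell. Prkaa2, a catalytic subunit of AMP-activated kinase, rose by 1.59, and Ppargc1b fell by 1.03. Without replicate 3 of cytokines with DMSO the regulators had 8 higher and 3 lower at 12 h, and synthesis 0 higher and 5 lower. The lipolysis list then had 6 higher and 3 lower, and peroxisomal oxidation 5 lower.

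BRD0476 was next compared with DMSO in cells that all received cytokines. At 6 h it raised Elovl6 4.79-fold, Gpd1 2.56-fold, Fasn 2.35-fold and Acaca 2.06-fold, and Srebf1 and Lpl 1.33-fold each. Cpt1a went down 1.21-fold. At 12 h Elovl6 was 2.87-fold, Gpd1 1.51-fold and Fasn 1.48-fold higher with BRD0476 and Cpt1a 1.26-fold lower, while Acaca, Acly, Srebf1 and Lpl did not pass. In all 8 of 8 genes changed at 6 h, 7 up and 1 down, where 44% of all genes changed (24.7% up and 19.4% down). At 12 h 4 of 8 changed, 3 up and 1 down, against 26.9% (16.3% up and 10.6% down). The DMSO arrays with cytokines are shared with the comparison above, where they enter with the opposite sign, so the 2 sets of values are not independent. A deviation in these arrays moves the 2 changes in opposite directions.

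**Figure D2:**
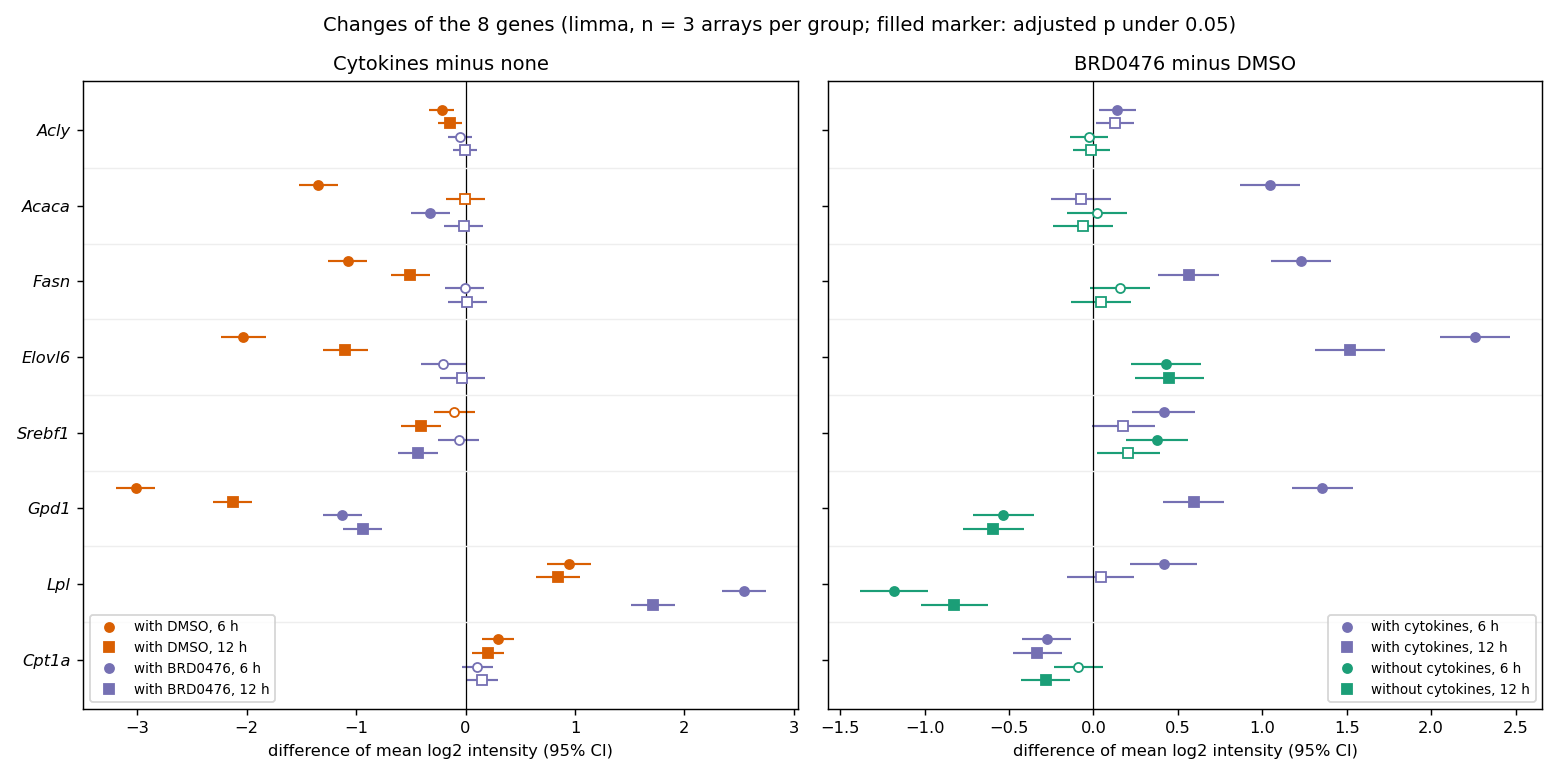
Difference of mean log2 intensity (horizontal axis) for each of the 8 genes, cytokines minus none on the left and BRD0476 minus DMSO on the right, with 95% intervals from limma, 3 arrays a group, and filled markers where the adjusted p was under 0.05. With cytokines at 6 h, BRD0476 raised Elovl6 by 2.26, and without cytokines it lowered Lpl by 1.18.

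With cytokines and BRD0476 at 6 h, Acaca read 9.50, 9.63 and 9.65, above every DMSO array with cytokines and below every untreated array. It rose by 1.05 (SE 0.085, adjusted p 2.58e-09). Fasn read 10.35, 10.45 and 10.41, within or near the untreated range of 10.12 to 10.44, and rose by 1.23 (adjusted p 2.2e-10). Acly read 13.40, 13.39 and 13.44 and was 0.14 higher (adjusted p 0.036). This Acly call was lost without any 1 of the 6 arrays (adjusted p 0.0533 to 0.104), without replicate 3 of cytokines with DMSO at both times (0.0939), and with arrays centred on their medians or quantile normalized. At 12 h Acaca, at 9.33, 9.34 and 9.21, overlapped the DMSO arrays, with a change of -0.08 (95% interval -0.25 to 0.10). Fasn, at 9.97, 10.03 and 9.90, stayed above them by 0.56 (adjusted p 2.82e-05). Acly, at 13.36, 13.33 and 13.32, did not overlap the DMSO arrays and missed the threshold (0.13, adjusted p 0.0903).

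Elovl6 with cytokines and BRD0476 read 8.0, 8.30 and 8.14 at 6 h and 7.63, 7.80 and 7.92 at 12 h. All 6 arrays lay at least 1 log2 unit above every DMSO array with cytokines of the same time, and the rises were 2.26 (SE 0.099, adjusted p 2.12e-13) and 1.52 (adjusted p 1.64e-10). These placed Elovl6 15th highest of 14217 genes at 6 h and 28th at 12 h. Srebf1 read 9.63, 9.56 and 9.53 at 6 h, above all DMSO arrays, and rose by 0.42 (SE 0.089, adjusted p 0.000587). At 12 h it read 9.13, 8.93 and 8.76, which overlap the DMSO arrays, and the change was 0.18 (adjusted p 0.163). It passed only without replicate 3 of cytokines with BRD0476 (0.0417). The dimmer Srebf1 probe set read 6.35, 6.55 and 6.37 at 6 h with a change of -0.17 (adjusted p 0.573). Without the replicate 3 arrays of cytokines with DMSO it fell by 0.44 (adjusted p 0.00538), against the rise of the brighter one. With a mean of both probe sets the 6 h change was 0.13 (adjusted p 0.361).

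Gpd1 read 9.17, 9.12 and 9.05 with cytokines and BRD0476 at 6 h, between the DMSO arrays with cytokines and the untreated arrays and overlapping neither. It rose by 1.36 (SE 0.086, adjusted p 6.49e-11) and its mean of 9.11 was below the untreated 10.77. At 12 h it read 8.70, 8.64 and 8.72, again in between, and was 0.59 higher (adjusted p 1.74e-05). Lpl read 9.43, 9.35 and 9.23 at 6 h, the highest Lpl values of any group, and was 0.42 higher (SE 0.095, adjusted p 0.00112). At 12 h Lpl, at 9.06, 8.90 and 8.99, overlapped the DMSO arrays, with a change of 0.04 (95% interval -0.16 to 0.24). The adipocyte marker sum was higher with BRD0476 at 6 h, 7.99 to 8.09 against 7.49 to 7.79, and lower at 12 h, 8.22 to 8.34 against 8.44 to 8.67. Cidec, with group means of 6.28 to 8.33, was the only marker in this sum with a mean above the lower quartile of all genes. The part of the sum in the Lpl values was not tested. Cpt1a read 7.86, 7.92 and 7.84 at 6 h and 8.11, 8.06 and 7.98 at 12 h, below all DMSO arrays with cytokines, and fell by 0.28 (SE 0.070, adjusted p 0.00253) and 0.33 (adjusted p 0.00095). With the mean of both Cpt1a probe sets, the dimmer of which averaged 4.89, the 6 h fall was -0.16 (adjusted p 0.102).

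Of the 133 listed genes 52 rose and 25 fell with BRD0476 under cytokines at 6 h, where 24.7% of all genes rose and 19.4% fell. The shares changed in the lipolysis (38.1%), glycerolipid (50%) and uptake (50%) lists were near the 44% of all genes. Of 13 synthesis genes 7 rose and 2 fell, with Me1, the malic enzyme that supplies NADPH, at 0.70 and Acss2 at 0.67. Without replicate 3 of cytokines with DMSO, 6 rose and 0 fell. Of 14 elongation and desaturation genes 8 rose and 1 fell, with Fads1 at 1.34 and Scd2 at 1.25. The 1 that fell, Hacd2 (-0.19), was called the other way on its second probe set. Mitochondrial oxidation had 13 higher and 4 lower of 21, with Hadh at 1.42 and Acadm at 0.84, and Cpt1a and Hadha (-0.57) among the 4. Peroxisomal oxidation had 7 higher of 11 and none lower, with Abcd3 at 0.95. Regulators had 2 higher and 9 lower of 21: Insig1 rose by 0.95, while Nr1h2 fell by 1.23 and Ppard by 1.03. Lipolysis genes had 2 higher and 6 lower of 21, with Hilpda at -1.34 and G0s2 at -0.92. Without replicate 3 of cytokines with DMSO, 11 regulators and 8 lipolysis genes were lower. Glycerolipid genes had 6 higher and 2 lower of 16, with Gk at 1.16, and uptake genes 7 and 1 of 16, with Acsl6, a long-chain acyl-CoA synthetase, at 0.98.

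At 12 h 35 of the 133 were higher with BRD0476 and 13 lower, where 16.3% and 10.6% of all genes were. Elongation and desaturation had 9 higher and 1 lower of 14, with Fads1 at 1.01 and Scd2 at 0.74. Synthesis had 5 higher of 13, with Slc25a1, the mitochondrial citrate exporter, at 0.47. Without replicate 3 of cytokines with DMSO at both times Slc25a1 was at 0.22 and not called (adjusted p 0.0597). Of the oxidation genes, 4 were higher and 2 lower of 21 mitochondrial ones and 2 were higher of 11 peroxisomal ones. G0s2, lower with BRD0476 at 6 h, was 1.11 higher at 12 h, and Plin2, a lipid droplet coat protein, fell by 0.90. Ppargc1b rose by 0.97 and Ppargc1a, its relative among mitochondrial coactivators, by 0.69. Glycerolipid genes had 6 higher and 1 lower of 16, with Lpin1 at 0.78 and Lpin2 at -0.51. Regulators had 3 higher and 5 lower of 21, lipolysis genes 3 and 3 of 21, and uptake genes 3 and 1 of 16.

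**Figure D3:**
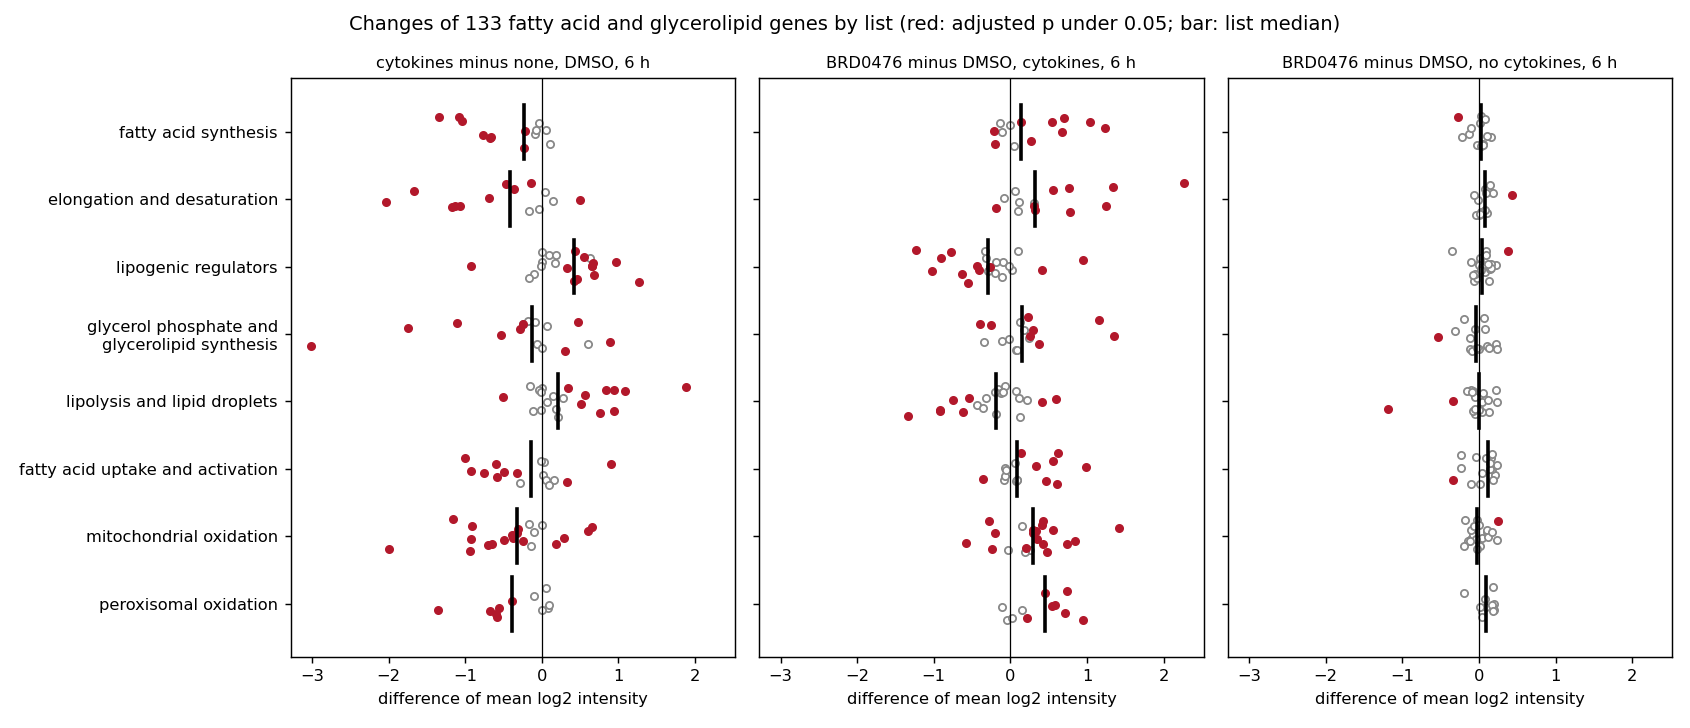
Difference of mean log2 intensity (horizontal axis) of 133 genes in 8 lists (vertical axis) at 6 h, for cytokines minus none in DMSO, BRD0476 minus DMSO with cytokines, and BRD0476 minus DMSO without cytokines. Red points had an adjusted p under 0.05, open points did not, and bars are list medians: elongation and desaturation has medians of -0.41, 0.32 and 0.08 in the 3 panels.

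BRD0476 without cytokines moved a different mix of the 8 genes. Lpl fell 2.27-fold at 6 h and 1.77-fold at 12 h, and Gpd1 fell 1.45-fold and 1.51-fold, so both were lower with BRD0476 alone although both were higher with BRD0476 under cytokines at 6 h. Elovl6 rose 1.35-fold at 6 h and 1.37-fold at 12 h, and Srebf1 rose 1.30-fold at 6 h. Cpt1a fell 1.22-fold at 12 h, while Acly, Acaca and Fasn did not pass at either time. At 6 h 4 of 8 genes changed, 2 up and 2 down, where 3.53% of all genes did (1.68% up and 1.85% down), and at 12 h 4 of 8, 1 up and 3 down, where 4.66% did (2.02% up and 2.64% down).

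Lpl with BRD0476 alone read 6.90, 6.55 and 6.93 at 6 h against the untreated 8.02, 8.03 and 7.86. The groups were nearly 1 log2 unit apart at their nearest, and the change was -1.18 (SE 0.095, adjusted p 3.48e-07), the 4th lowest of 14217 genes. Only 5 genes in all were 2-fold or more lower in this comparison. At 12 h Lpl read 7.24, 7.25 and 7.33 against 8.0, 8.18 and 8.11, and fell by 0.82 (adjusted p 1.18e-05), the 19th lowest. The adipocyte marker sum was 7.11 to 7.23 with BRD0476 alone and 7.22 to 7.38 without it at 6 h, which overlap. Gpd1 read 10.27, 10.30 and 10.14 at 6 h and 9.57, 9.59 and 9.72 at 12 h, below every untreated array of the same time. It fell by 0.53 (SE 0.086, adjusted p 0.000799) and 0.59 (adjusted p 0.00016).

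The rises and the Cpt1a fall were smaller and less stable. Elovl6 read 8.40, 8.28 and 8.38 at 6 h and 7.86, 7.84 and 7.73 at 12 h, above all untreated arrays, with changes of 0.43 (SE 0.099, adjusted p 0.0161) and 0.45 (adjusted p 0.00907). The 6 h call was lost without replicate 1 or 3 of either group (adjusted p up to 0.0792), and the 12 h call without untreated replicate 1 (0.0649). Srebf1 read 9.68, 9.68 and 9.55 at 6 h, again above all untreated arrays, and rose by 0.38 (SE 0.089, adjusted p 0.0192). That call was lost without untreated replicate 1 or 3 or BRD0476 replicate 1 or 2 (up to 0.0885). At 12 h Srebf1, at 9.37, 9.39 and 9.37, did not overlap the untreated arrays and missed the threshold (0.21, adjusted p 0.244). Cpt1a read 7.90, 7.63 and 7.76 at 6 h, overlapping the untreated arrays. At 12 h it read 7.86, 7.86 and 7.98, below them, and fell by 0.28 (adjusted p 0.0203), a call lost without any untreated replicate or BRD0476 replicate 1 or 2 (up to 0.0992). In fits over the compared arrays alone, Elovl6 and Srebf1 at 6 h were not called.

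Of the 133 listed genes 3 rose and 5 fell with BRD0476 alone at 6 h, where 1.68% of all genes rose and 1.85% fell. At 12 h 5 rose and 7 fell, where 2.02% and 2.64% of all genes did. Members, given above, were 2 of those that rose and 2 that fell at 6 h, and 1 and 3 at 12 h. Others at 6 h were Oxsm, a mitochondrial ketoacyl synthase (-0.28), Fabp5, a fatty acid binding protein (-0.34), Plin2 (-0.34) and Hadh (0.24). At 12 h Insig1 rose by 0.43, Hsd17b12, the ketoacyl reductase of elongation, by 0.37, and the desaturase Fads2 by 0.35. Plin2 fell by 0.49, Cpt2 by 0.30, Acadm by 0.25 and Agpat4 by 0.25. Elongation and desaturation had 4 higher of 14 at 12 h, and mitochondrial oxidation 3 lower of 21.

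Whether BRD0476 acted differently with and without cytokines was tested as an interaction, the BRD0476 change with cytokines minus that without. At 6 h it was positive and called for Gpd1, Elovl6, Lpl, Fasn and Acaca, and at 12 h for Gpd1, Elovl6, Lpl and Fasn. Srebf1 was not called at 6 h (0.04, 95% interval -0.22 to 0.30) or at 12 h (-0.03, -0.29 to 0.23). In counts, 5 of 8 genes were called at 6 h, all up, where 33.2% of all genes were called (18.8% up and 14.4% down), and 4 of 8 at 12 h, all up, where 15.3% were (8.38% up and 6.89% down). The 6 h interactions were 1.89 for Gpd1 (SE 0.12, adjusted p 2.89e-10), 1.83 for Elovl6 (2.92e-09), 1.60 for Lpl (1.19e-08), 1.07 for Fasn (6.45e-07) and 1.02 for Acaca (1.17e-06). At 12 h they were 1.19 for Gpd1, 1.07 for Elovl6, 0.87 for Lpl and 0.52 for Fasn, with adjusted p from 3.7e-07 to 0.00416. Cpt1a was at -0.19 (adjusted p 0.161) and -0.05 (0.839). Acly missed at 6 h (0.17, adjusted p 0.0969), and passed without untreated replicate 2 (0.0386). The Lpl and Gpd1 interactions took in opposite signs: BRD0476 lowered both without cytokines, and under cytokines Lpl was 0.42 higher at 6 h and Gpd1 1.36 higher.

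Of the 133 listed genes the 6 h interaction was called up in 43 and down in 18, where 18.8% and 14.4% of all genes were. Fads1 (1.23), Scd2 (1.16), Hadh (1.18), Abcd3 (1.15) and Gk (1.08) were the highest of their lists outside the members. Nr1h2 (-1.45), Hilpda (-1.34), G0s2 (-0.97) and Mlxipl, which encodes the carbohydrate response factor ChREBP (-0.71), were among the lowest. At 12 h 21 were called up and 7 down, where 8.38% and 6.89% of all genes were. G0s2 was at 1.44, Mgll at 1.09 and Lpin1 at 0.87, and Nr1h2 was at -0.72 and Pnpla2 at -0.63. The second probe sets of Hadh and Gk at 6 h, and of Nr1h2 at both times, were not called.

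Cytokines were also compared with no cytokines where both groups had BRD0476. Lpl rose 5.83-fold at 6 h and 3.27-fold at 12 h, and Gpd1 fell 2.18-fold and 1.92-fold. Acaca fell 1.25-fold at 6 h and Srebf1 1.35-fold at 12 h. Fasn, Elovl6, Acly and Cpt1a did not pass at either time. At each time 3 of 8 genes changed, 1 up and 2 down, where 20.9% of all genes changed at 6 h (10.3% up and 10.7% down) and 27.7% at 12 h (9.19% up and 18.5% down). All 4 groups of these comparisons are used above as well.

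From the array values already given, Lpl with BRD0476 ran from 6.55 to 6.93 without cytokines to 9.23 to 9.43 with them at 6 h. No other of the 8 genes had so wide a gap here, and the rise was 2.54 (SE 0.095, adjusted p 2.1e-14), then 1.71 at 12 h (1.11e-11). Gpd1 fell by 1.13 (adjusted p 2.2e-09) and 0.94 (3.15e-08), without overlap at either time. Fasn was at -0.01 (95% interval -0.18 to 0.17) at 6 h and 0.02 (-0.16 to 0.19) at 12 h, and the arrays overlapped. Elovl6 was at -0.20 (-0.41 to 0.00, adjusted p 0.173) and -0.03 (-0.24 to 0.18), also with overlap. With the mean of its probe sets Elovl6 passed at 6 h (-0.38, adjusted p 0.0249), and the second probe sets of Elovl6 (-0.56) and Fasn (-0.34) were called lower there. Acaca at -0.32 (adjusted p 0.00827) was called on its brighter probe set, and with the mean of both it was not (-0.23, adjusted p 0.0562). Srebf1 at 12 h was -0.44 (adjusted p 0.000781) and, with the mean of both, -0.06 (0.734). Of the 133 listed genes 10 rose and 19 fell at 6 h, where 10.3% of all genes rose and 10.7% fell. At 12 h 14 rose and 37 fell, where 9.19% and 18.5% of all genes did. Hadh (-0.81 and -0.85), Lpin2 (0.69 and 0.52), Acsl5 (0.45 and 0.83) and Fabp3 (-0.44 and -0.55) were called at both times.

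Several members differed between the 6 h and 12 h sets. In untreated cells, Acaca, Elovl6, Gpd1 and Fasn were lower at 12 h than at 6 h and Cpt1a was higher, so that the untreated controls were not at a fixed level. The falls were 1.47-fold for Elovl6 and for Gpd1, 1.44-fold for Acaca and 1.27-fold for Fasn, and Cpt1a rose 1.26-fold. By the test 5 of 8 genes changed, 1 up and 4 down, where 1.67% of all genes changed (0.464% up and 1.21% down). Acaca fell by 0.52 (adjusted p 0.00127), Gpd1 by 0.55 (0.000772) and Elovl6 by 0.56 (0.00273). Fasn, at -0.34 (0.0415), was not called without untreated 6 h replicate 2 or 3 or without any untreated 12 h replicate (adjusted p up to 0.183). Cpt1a, at 0.33 (0.0134), was not called without replicate 3 of either time (up to 0.0817). In a fit over these 6 arrays alone Elovl6, Fasn and Cpt1a were not called. Collection time cannot be told apart from any other difference between the 6 h and 12 h sets. Of the 133 listed genes 1 rose and 10 fell. Besides the members, Insig1 (-0.82), Acss2 (-0.80), Scd2 (-0.46), Fabp3 (-0.44), Fads1 (-0.41) and Acsl1 (-0.41) fell. No further probe set of Scd2 or Acsl1 was called there.

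The cytokine change in DMSO was smaller at 12 h than at 6 h for 4 members. The 12 h change minus the 6 h change was 1.34 for Acaca (SE 0.12, adjusted p 4.55e-08), 0.94 for Elovl6 (2.79e-05), 0.89 for Gpd1 (1.07e-05) and 0.57 for Fasn (0.000957). In counts 4 of 8 were called, all up, where 28.8% of all genes were (11.8% up and 16.9% down). In Lpl it was -0.10 (95% interval -0.38 to 0.18), in Cpt1a -0.09 (-0.30 to 0.11) and in Acly 0.08 (-0.08 to 0.24). Srebf1 missed at -0.30 (adjusted p 0.0789) and passed without cytokine and DMSO replicate 2 at 6 h or replicate 1 at 12 h (down to 0.0164). For Acaca, the untreated mean went from 9.89 to 9.37 while the mean with cytokines went from 8.55 to 9.37. In the lists 22 of 133 were called up and 21 down. Insig1 (0.99) was among the highest. G0s2 had the lowest value (-2.41): it rose by 0.56 at 6 h and fell by 1.85 at 12 h, and Ppargc1b was at -1.71.

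Set in order of group means, Elovl6, Fasn, Gpd1 and Acaca were lowest with cytokines and DMSO at 6 h. These 4 genes are those that fell most there with cytokines, so the shared lowest group follows largely from that choice. Elovl6 ran from 8.35 with BRD0476 alone at 6 h down to 5.89 with cytokines and DMSO at 6 h, and its 5 highest groups, all 4 BRD0476 groups and untreated cells at 6 h, each overlapped the next. Fasn ran from 10.41 to 9.17 with its 3 highest groups overlapping in the same way, all of them at 6 h. Gpd1 ran from 10.77 in untreated cells at 6 h to 7.76, and only BRD0476 alone at 6 h and untreated cells at 12 h overlapped as neighbours. Acaca ran from 9.91 to 8.55, and its 4 groups at 12 h, between 9.29 and 9.37, could not be placed in order. Lpl ran from 9.33 with cytokines and BRD0476 at 6 h to 6.79 with BRD0476 alone at 6 h, with all 4 cytokine groups above all 4 groups without. Cpt1a ran from 8.38 with cytokines and DMSO at 12 h to 7.76 with BRD0476 alone at 6 h. Srebf1 ran from 9.64 to 8.77, its lowest groups being both cytokine groups at 12 h, and Acly from 13.49 to 13.21.

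A second probe set was present for 6 of the 8 genes, and Acly and Lpl have 1 each. Over the 24 arrays, which share treatments and so are not independent, the probe sets of Elovl6 correlated at 0.962, of Gpd1 at 0.924 and of Fasn at 0.912. Those of Acaca correlated at 0.613, of Cpt1a at 0.397 and of Srebf1 at 0.0929. The dimmer sets of Acaca and Cpt1a averaged 4.55 and 4.89, beside a lower quartile of 4.49 over all genes. At 6 h with cytokines in DMSO, the dimmer sets fell by 2.43 for Elovl6, 1.65 for Fasn, 1.28 for Gpd1 and 0.46 for Acaca, and each was called. The Acaca change was -0.30 (adjusted p 0.0172) without replicate 3 of cytokines with DMSO at both times. The dimmer Acaca set did not pass for BRD0476 under cytokines at 6 h (0.13, adjusted p 0.408) or for the 6 h interaction (0.32, 0.159), both of which passed on the brighter set. Its difference of cytokine change between times was 0.55 (adjusted p 0.0157), and without those arrays 0.34 (0.0863). At 12 h Fasn was at -0.18 on this probe set (adjusted p 0.185) beside -0.50 on the brighter one, and the difference of its cytokine change between times was 1.46 beside 0.57. With BRD0476 alone none of the 6 dimmer sets was called at either time, with Gpd1 at -0.40 (adjusted p 0.125) and -0.15 (0.706). For Gpd1 under cytokines the BRD0476 change at 12 h was 0.25 on the dimmer set and did not pass (0.203), whereas without replicate 3 of cytokines with DMSO at both times it was 0.36 and passed (0.0248). The dimmer Fasn set in the same comparison went the other way, from 0.38 (0.0123) to 0.33 (0.0551). The interactions at 12 h did not pass on the dimmer sets of Fasn (0.42, adjusted p 0.0781), Elovl6 (0.68, 0.076) or Gpd1 (0.41, 0.197). Without those arrays the Gpd1 interaction was 0.52 and passed (0.026), as did its difference of cytokine change between times, 0.47 (0.0397) in place of 0.41 (0.119). The 6 h interaction of the dimmer Srebf1 set was -0.47 (0.259), and -0.74 (0.00124) without them.

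**Figure D4:**
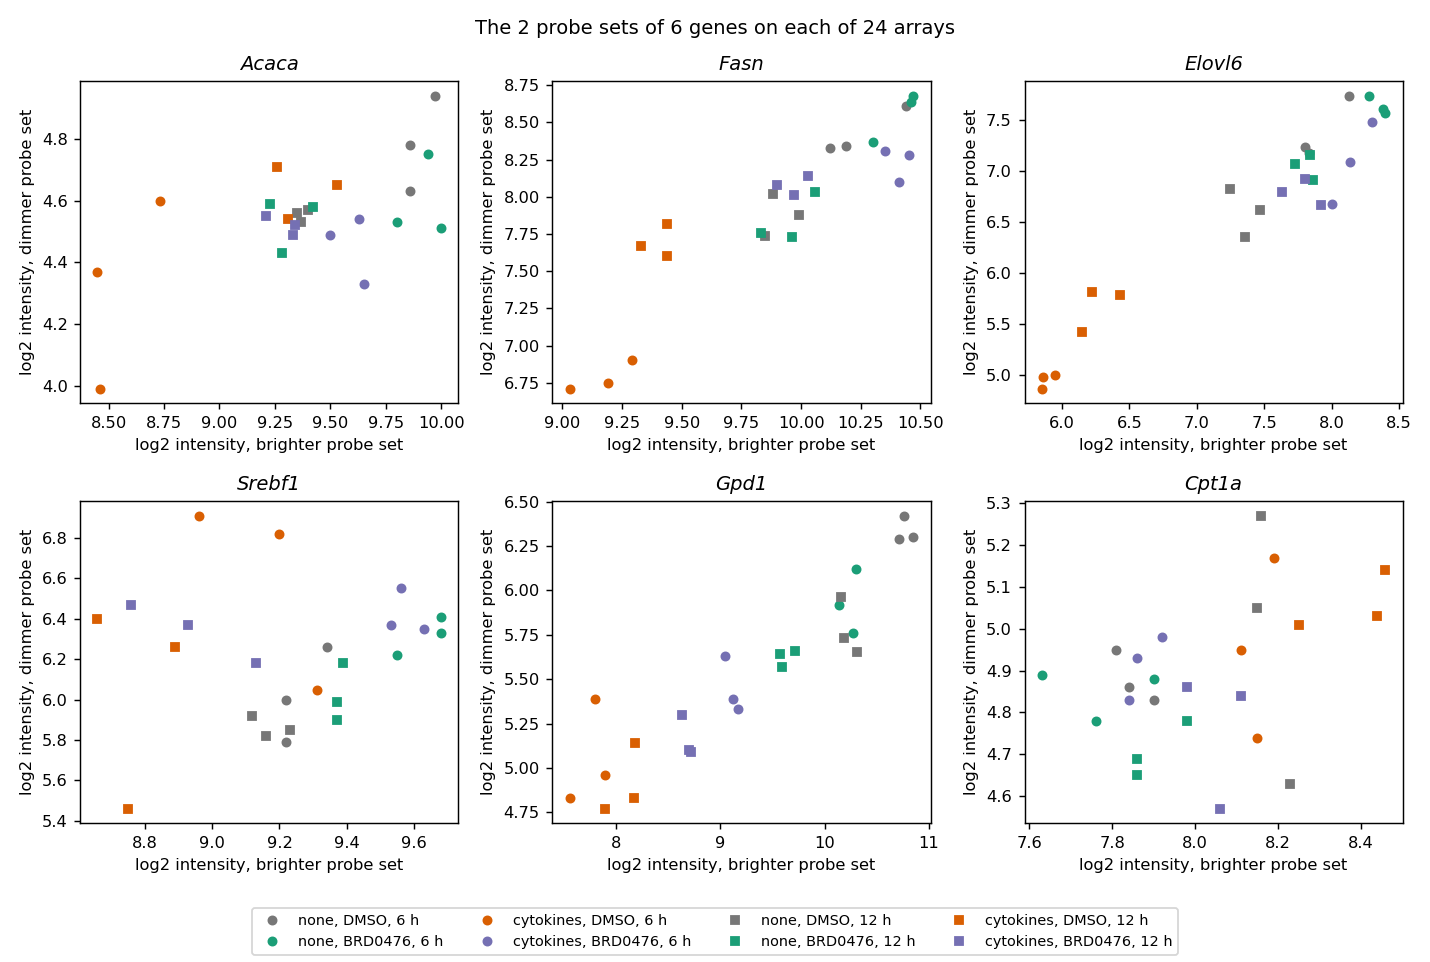
Log2 intensity of the dimmer probe set (vertical axis) against the brighter one (horizontal axis) for the 6 genes with a pair, 1 point for each of 24 arrays, coloured by treatment, with circles at 6 h and squares at 12 h. Points of Elovl6 lie along 1 line (r 0.962), and those of Srebf1 do not (r 0.0929).

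The genes whose log2 values over the 24 arrays were most like those of each member were looked up among 2679 genes with group means that spanned at least 1 log2 unit and a mean above the lower quartile. Fasn and Elovl6 were each closest to Scd2, at r of 0.979 and 0.975, and to each other at 0.959. Scd2 read 12.30, 12.58 and 12.47 in untreated cells at 6 h, 11.32, 11.31 and 11.19 with cytokines, and 12.43, 12.57 and 12.56 with cytokines and BRD0476, so the last overlapped the first. Acaca was closest to Lss, the lanosterol synthase of the cholesterol pathway (0.932), then Adarb1 (0.912) and Cdkl2 (0.905). Gpd1 was closest to Klhl5 (0.986), C8h11orf54 (0.984) and Cnnm3 (0.982), and Lpl to Cadm1, a cell adhesion molecule (0.965), Krt7 (0.944) and Adcyap1r1 (0.935). Srebf1 was closest to Hps1 (0.927), Acly to Kcnip1 (0.874) and Cpt1a to Fgf13 (0.875). Acss2 was the third for Acly (0.867). Among the members, Cpt1a correlated at -0.786 with Elovl6 and -0.745 with Fasn, and Lpl at -0.681 with Gpd1. These correlations come from 8 treatment groups shared by all genes and are given as descriptions.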

How the data were processed

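RNA of 24 INS-1E samples was measured on Affymetrix rat expression arrays. The deposited values are linear intensity values, highest 24852.9, summarised by the authors with RMA per the submitters' processing notes, with no version given. They were taken to log2 here. Of 31099 probe sets, 20826 with 1 gene symbol were kept (57 control probe sets were left out, as were 436 with several symbols and 9831 without one), and the probe set with the highest mean stood for each of 14217 genes. The 8 groups were fitted together in limma 3.58.1 (R 4.3.3; 16 residual degrees of freedom, 3 arrays a group), with Benjamini-Hochberg adjustment over all genes and calls at an adjusted p under 0.05. Exact permutation of 3 against 3 cannot go below 0.1, so none was used. An interaction is a difference of differences.

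Members and lists were chosen with earlier results of these data known. Genes named outside the members are, per list and direction, up to 2 called genes with the largest change and no overlap between groups. Each is read from its brightest probe set. Further probe sets of some, such as Hadha, Eci1, Lpin2 and Nr1h2, were not called in the comparisons where these genes are named. For the closing section, differences between times or settings are given for the members and for the list gene with the largest value in each direction. A simulation of the 6 h cytokine comparison covered 14217 genes. It recovered 12 of 50 genes changed by 0.25 log2 units, 35 of 50 at 0.5, and 49 of 50 at 1 and at 2. There were 5 false calls of 150. Only these genes were changed, with independent noise, whereas 51.7% of genes were called in the data. The rates of the simulation therefore do not carry over to the data. Deviations of arrays with the same replicate number correlated at -0.478 to 0.722, the highest between the 2 replicate 3 arrays that lay apart. The main fit did not pair arrays by number, and whether arrays of 1 number share a source was not tested. Alternatives were fits on the compared arrays, a replicate block, an intensity trend, other probe set rules, a filter on dim genes, median centring, quantile normalization and leaving out arrays. Figures were drawn with matplotlib 3.10.9.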

Additional observations from a re-analysis of the deposited data

Results flagged for a closer look

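BRD0476 changed 5 members differently with and without cytokines, by the interaction test over 3 arrays a group. At 6 h the difference of changes was 1.02 for Acaca, 1.07 for Fasn, 1.83 for Elovl6, 1.89 for Gpd1 and 1.60 for Lpl. At 12 h it was 0.52 for Fasn, 1.07 for Elovl6, 1.19 for Gpd1 and 0.87 for Lpl. The cytokine change in DMSO also differed between 12 h and 6 h, by 1.34 for Acaca, 0.57 for Fasn, 0.94 for Elovl6 and 0.89 for Gpd1.

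Among the other listed genes, the interaction at 6 h was highest for Fads1 (1.23) and lowest for Nr1h2 (-1.45). At 12 h it was highest for G0s2 (1.44) and lowest for Nr1h2 (-0.72). The second probe set of Nr1h2 was not called in the interaction at either time. For the cytokine change at 12 h minus 6 h, Insig1 was highest (0.99) and G0s2 lowest (-2.41), outside the members. Nr1h2 read 8.68, 8.83 and 8.20 with cytokines and DMSO at 6 h and 8.65, 8.84 and 7.94 at 12 h. Replicate 3 was the lowest at both times, and these are the arrays that lay apart from their groups.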

How the results depend on the processing

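Of 1544 member values under an alternative, 64 lost a call, 11 gained one and 0 called values changed sign, while 43 values that were not called changed sign. Fitted on the compared arrays alone, BRD0476 with cytokines at 12 h called 2379 genes in place of 3827, BRD0476 alone at 6 h called 108 genes in place of 502 and 2 members in place of 4, and 12 h against 6 h in untreated cells called 97 genes in place of 238 and 2 members in place of 5. With a mean of each gene's probe sets, BRD0476 alone at 6 h called 2 members. Leaving out 1 array at a time gave 286 to 399 genes and 2 to 4 members for BRD0476 alone at 6 h, 360 to 431 genes and 2 to 4 members at 12 h, and 132 to 279 genes and 3 to 5 members for time in untreated cells. The other counts kept within 1.5 times under every alternative run. With a replicate block, the Fasn fall over time in untreated cells lost its call (-0.34, adjusted p 0.0661), the members called there went from 5 to 4, and no other member's call changed; 12 of 24 arrays correlated best with their own number. Without replicate 3 of cytokines with DMSO at both times, an alternative chosen after seeing the data, the members called were 7 at 6 h and 5 at 12 h for cytokines, and 7 at 6 h for BRD0476 with cytokines. Small changes are limited by 3 arrays a group: the median standard error of a difference was 0.102 log2 units. The causes of these shifts were not tested.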
